A study of Mus musculus with 2 samples.

Results

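The genes described here were 8 genes of mineralized bone matrix, listed by symbol with earlier results of these data known: *Spp1*, *Ibsp*, *Dmp1*, *Mepe*, *Phex*, *Ifitm5*, *Sparc* and *Sost*. All probe sets annotated to 1 of these genes alone were taken. They numbered 14 and covered 7 of the 8 members, out of 18193 genes measured. *Spp1*, which encodes osteopontin, had no probe set annotated to it in the table used and was not analysed here. RNA came from femoral cartilage at E17.5. The embryos were *Tric-b*-knockout mice of C57BL/6J and 129Sv background, and *Tric-b* (*Tmem38b*) encodes the ER cation channel TRIC-B. An Affymetrix array was hybridized for the round chondrocyte specimen (round zone) and another for the specimen of columnar and hypertrophic chondrocytes (CH zone), each with RNA mixed from 3 preparations. Both groups carried the knockout. No wild-type array was analysed here, and every difference below is thus between zones and none between genotypes. With 1 array per zone there was no replicate check and no test.

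SIBLING proteins (small integrin-binding ligand N-linked glycoproteins) are acidic, phosphorylated secreted proteins that bind hydroxyapatite and, through an RGD motif, integrins. Their genes lie next to each other in a single cluster, and their products are laid down by osteoblasts, osteocytes, odontoblasts and, for some of them, hypertrophic chondrocytes as cartilage begins to calcify. *Phex* encodes an endopeptidase of osteoblasts and osteocytes that degrades SIBLING-derived peptides, *Ifitm5* a small osteoblast membrane protein, *Sparc* the collagen-binding protein osteonectin, and *Sost* the osteocyte Wnt inhibitor sclerostin. Mutations of *IFITM5*, *SPARC* and *TMEM38B*, the human gene of TRIC-B, are each known causes of osteogenesis imperfecta.

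The bases before the start sites of 3 members are shown because these genes stand for the outcomes found below: *Ibsp* with the largest zone difference, *Ifitm5* with a difference measured above the floor in both zones, and *Mepe* with no signal above the floor in either. Each sequence is the 250 bases upstream of the annotated start, 5′ to 3′ on the gene's strand, from RefSeq (GRCm38.p6). Capitals mark letters of a RUNX core (ACCACA or TGTGGT), a homeodomain core (TAATTA) or a TATA box (TATAAA or TTTATA), searched on both strands, and no match overlapped another.
Ibsp, chr5:104299037-104299286, plus strand: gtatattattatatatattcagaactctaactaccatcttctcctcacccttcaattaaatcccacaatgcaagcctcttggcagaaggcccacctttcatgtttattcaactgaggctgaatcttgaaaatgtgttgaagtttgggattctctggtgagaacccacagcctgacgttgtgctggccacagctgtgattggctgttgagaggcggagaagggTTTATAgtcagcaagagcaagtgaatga
Ifitm5, chr7:140950244-140950493, minus strand: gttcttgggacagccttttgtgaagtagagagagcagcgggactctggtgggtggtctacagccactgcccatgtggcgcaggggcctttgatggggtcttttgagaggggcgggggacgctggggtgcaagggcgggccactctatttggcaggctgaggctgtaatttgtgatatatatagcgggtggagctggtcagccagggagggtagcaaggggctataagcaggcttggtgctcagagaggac
Mepe, chr5:104325079-104325328, plus strand: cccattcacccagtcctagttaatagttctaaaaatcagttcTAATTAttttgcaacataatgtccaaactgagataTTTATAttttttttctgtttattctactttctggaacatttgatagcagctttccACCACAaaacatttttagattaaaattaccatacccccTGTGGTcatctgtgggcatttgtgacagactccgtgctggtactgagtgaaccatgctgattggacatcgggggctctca

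The *Ibsp* window held the letters of a TATA box on the opposite strand, starting 28 bases before the start site, and no RUNX core. The *Ifitm5* window held none of the 3 motifs. The *Mepe* window held 2 RUNX cores, at 118 and 80 bases before the start, as well as the homeodomain and TATA letters. Over all 10 windows of the 8 members, 3 held a RUNX core, 2 the homeodomain core and 3 a TATA box, against 14%, 4.84% and 12.4% of 32851 windows of the same length. The remaining RUNX matches were in the windows of *Spp1* and *Dmp1*, both of which have 2 annotated starts. A match describes letters only. The *Mepe* window, which held all 3 motifs, belongs to a gene with no signal above the floor in either array.

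A probe set is a group of short probes for one transcript, and its signal is the MAS5 summary of their brightness on a linear scale. Since probe sets differ in brightness for reasons of their own, each gene was compared only with itself between the arrays. The one exception is the summed signals of marker lists, which also hold values under the floor and follow their brightest probe sets. A floor was set at a signal of 65.9, the 40th percentile of all signals. It was exceeded by 61.3% of probe sets in the round zone and 58.7% in the CH zone. A value at or under the floor was not told apart from other such values, and where 1 array was at the floor the fold is a bound ("at least"). Probe sets of a gene varied in their log2 difference by a pooled SD of 0.34 over 5446 genes, which is the only spread these data give. It was taken from probe sets above the floor in both arrays. It holds no variation between embryos, dissections or repeated arrays, so a value within or beyond it says nothing on these. The targeted gene, *Tmem38b*, was above the floor on 3 of 4 probe sets in both arrays, with signals from 188 to 323 in the round and from 184 to 304 in the CH zone. Whether these probe sets lie within the deleted part is not given in the sources used here, and no wild-type array was analysed, so they do not check the knockout label. Zone markers separated the arrays. Of 9 compared markers of round or resting chondrocytes, 5 had at least 2-fold more signal in the round zone and 1 in the CH zone. *Prg4* (lubricin, of the joint surface) was at 5260 in the round and 94.1 in the CH zone, and *Ihh* (Indian hedgehog, of prehypertrophic cells) at 87.8 and 3900.

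The bone matrix genes differed from one another. *Sparc* was bright in both zones and nearly equal, *Ifitm5* and *Ibsp* were at least 2-fold higher in the CH zone, *Dmp1* and *Phex* were above the floor in that zone alone without reaching 2-fold, and *Mepe* and *Sost* lay under the floor in both. In the round zone 2 members, *Ifitm5* and *Sparc*, were above the floor, and in the CH zone these were joined by *Ibsp*, *Dmp1* and *Phex*. Of 18193 genes measured, 12097 were above it in the round and 11827 in the CH zone. Of the 5 members compared, 2 were at least 2-fold higher in the CH zone and 0 in the round zone, where 4.28% and 6.25% of 12761 compared genes were. Under the 3 other scalings 3 members were at least 2-fold higher in the CH zone, *Dmp1* being the third. Of all compared genes 546 were as reported, and 645 to 674 under those scalings. All 5 members compared had a difference above 0, or 4 after lowess centring, which turned *Sparc*, and 46.8% of all compared genes did. Their median log2 difference was 0.95, against -0.04 over all compared genes. A member was compared only if it passed the floor in at least 1 array. Of the 5, 3 did so only in the CH zone, as did 5.2% of 12761 compared genes. These counts therefore describe the members and are no test of them. These are bulk specimens, in which more cells of a type and more RNA per cell cannot be told apart.

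**Figure D1:**
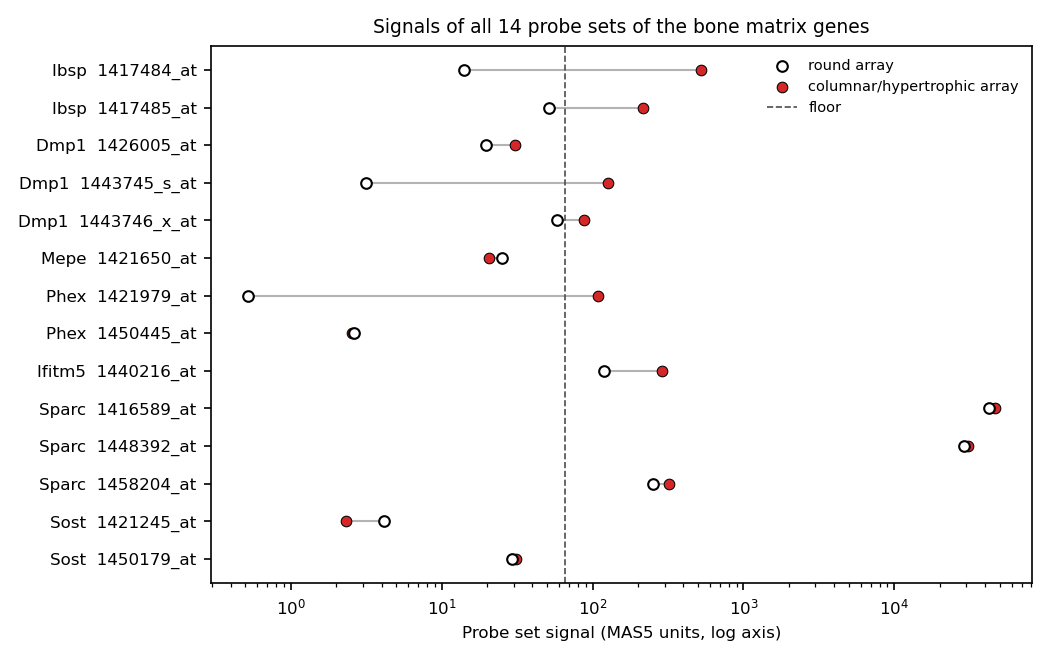
Signals (log axis) of all 14 probe sets of the 7 measured bone matrix genes in the round zone (open circles) and the CH zone (filled circles), 1 array per zone. The dashed line is the floor of 65.9; the *Ibsp* pair crosses it to 526 and 217, the *Sparc* pair of bright probe sets stays near 42564 and 28820, and every *Mepe* and *Sost* point lies to its left.

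*Ibsp* encodes bone sialoprotein, a SIBLING protein that can nucleate hydroxyapatite. Its first probe set (1417484_at) had signals of 14.0 (round) and 526 (CH), and its second (1417485_at) 51.5 and 217. On both probe sets the round signal was under the floor and the CH signal above it. The difference was at least 7.99-fold on the first and at least 3.29-fold on the second. The probe sets thus had the same direction, with bounds further apart on the log2 scale than the pooled SD, which was not taken from bounds. With the floor raised to the 60th percentile, a signal of 207, the bound on the gene fell to a log2 difference of 1.35.

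The other measured SIBLING genes lay near or under the floor. *Dmp1* encodes dentin matrix protein, which is made in bone chiefly by osteocytes and takes part in phosphate control. Its probe set 1443745_s_at was at 3.17 (round) and 127 (CH), a difference of at least 1.93-fold. The probe set 1443746_x_at had signals of 58.3 and 87.9, at least 1.33-fold. Both are of kinds, marked by s and x in the name, whose probes can match other transcripts. The remaining *Dmp1* probe set, 1426005_at, was under the floor in both arrays at 19.7 and 30.6, so the difference of *Dmp1* rests on the less specific probe sets. Its log2 difference was 0.95, and it passed 2-fold under each of the 3 other scalings, at 1.04 with centring on the median, 1.06 with quantiles equalized and 1.17 with lowess centring. *Mepe*, encoding the osteocyte protein matrix extracellular phosphoglycoprotein, had signals of 25.0 and 20.5 on its single probe set, under the floor in both arrays. The last SIBLING gene, *Dspp*, which is known chiefly from dentin and is no member of the set, was likewise under it at 4.20 and 5.45. Of 4 SIBLING genes measured, 0 were therefore above the floor in the round zone and 2 in the CH zone. Over all 18193 genes measured, 12097 and 11827 were.

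In the reference gene order, the 5 SIBLING genes occupy a run of 6 genes on chromosome 5, in the order *Dspp*, *Dmp1*, *Ibsp*, *Mepe*, *Spp1*. Of the 10 annotated genes flanking this run, 3 were measured. *Sparcl1*, a SPARC relative and the nearest measured gene on the *Dspp* side, had signals of 674 and 1261, a log2 difference of 0.90. On the *Spp1* side *Thoc2l* had signals of 347 and 330 and *Zfp33b* 353 and 234. None of these 3 reached 2-fold. *Mepe*, which lies next to *Ibsp*, had no signal above the floor in the array in which *Ibsp* did.

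*Phex* is mutated in X-linked hypophosphataemia. Its probe set 1421979_at had a signal of 0.525 in the round zone and 109 in the CH zone, and its probe set 1450445_at had 2.63 and 2.56. Only the CH signal of the first was above the floor, and the difference there was at least 1.65-fold. The round signal lies so far under the floor that the ratio of the deposited signals, a log2 difference of 7.70 with no floor, is not a measured fold. The probe sets disagreed, the second showing no signal above the floor in either array. Of all compared genes, 5.2% were at the floor in the round zone alone and 7.32% in the CH zone alone.

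*Ifitm5*, also called BRIL, is known from osteoblasts of forming bone. Its single probe set (1440216_at) had a signal of 119 in the round zone and 290 in the CH zone. Both values were above the floor, and the CH value was 2.43-fold the round value (log2 1.28). *Ifitm5* was therefore the member with a difference past 2-fold that was measured on both sides. The value was 1.37 to 1.51 under other scalings, and 0.49 as a bound with the floor at 207, where the round signal is no longer counted. With a single probe set no spread within the gene could be given. By closeness of the log2 difference over the 2 arrays, the most similar of 11163 genes above the floor in both were *Me2* (1.28), *Supt3* (1.28) and *Fzd1* (1.29), which describes 1 difference and no profile. The other IFITM genes, a family best known for restricting virus entry, did not share its direction. Of 6 measured, 4 were compared and all 4 were lower in the CH zone, though *Ifitm10* came to 0.01 after lowess centring and to 0 with quantiles equalized. *Ifitm3* had signals of 1341 and 121 (round, then CH; log2 -3.47), *Ifitm2* had 8284 and 3914 (-1.08), *Ifitm1* 261 and 147 (-0.82) and *Ifitm10* 246 and 216 (-0.19). The value of *Ifitm10* is within the pooled SD, and no test of the contrast with *Ifitm5* was possible.

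*Sparc* had the same order of signal in both zones. Its signals were 42564 in the round and 46190 in the CH zone on 1416589_at, 28820 and 30533 on 1448392_at, and 250 and 322 on 1458204_at. The log2 differences were 0.12, 0.08 and 0.37, higher in the CH zone on every probe set, and at 0.12 the gene's value lay within the pooled SD of 0.34 and turned to -0.07 after lowess centring. The first 2 probe sets lie near the highest signals of the arrays, 68899 and 67986. Whether brightness bore on their differences was not tested. Genes with a log2 difference within 0.01 of that of *Sparc* numbered 186, the closest being *Ntrk2*, *Rps6kb2* and *Eml1*. Of 7 SPARC-related genes, 5 were compared. *Fstl1*, encoding a secreted follistatin-like protein, was lower in the CH zone (12347 and 4804, log2 -1.36), *Smoc2* was at 11110 and 16896 (0.60) and *Smoc1* at 1984 and 1517 (-0.39). *Spock1* and *Spock2* were under the floor in both arrays.

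*Sost* had signals of 4.18 and 2.33 on 1421245_at and 29.5 and 31.0 on 1450179_at, in the order round, CH. All 4 signals were under the floor, so no difference was given. Among its paralogue, receptors and related secreted Wnt inhibitors, 5 of 7 were compared and *Dkk3* reached 2-fold, with signals of 268 and 68.1, lower in the CH zone. After lowess centring *Lrp4* also passed 2-fold, toward the CH zone. Of the LRP receptors of sclerostin, *Lrp6* was at 1911 and 1669, *Lrp4* at 71.1 and 122, and *Lrp5* at 122 and 29.8, the last of these under the floor in the CH zone. *Dkk1* and *Dkk2* were under the floor in both arrays.

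**Figure D2:**
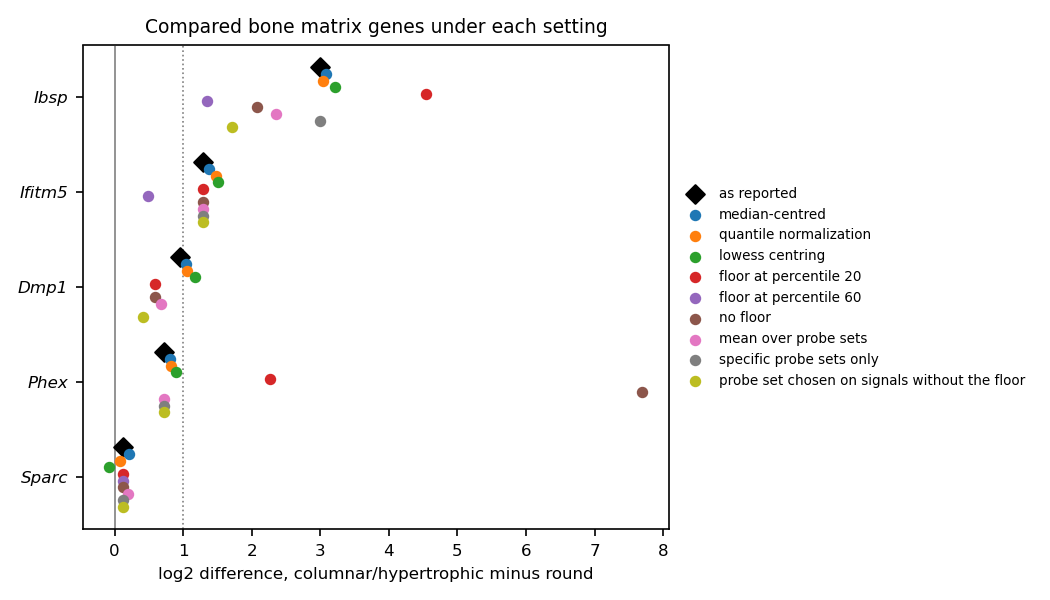
log2 difference (CH minus round) of the 5 compared bone matrix genes as reported (diamonds) and under up to 9 other settings (circles, offset vertically only to be seen apart). The dotted line marks 2-fold; *Ibsp* stays to its right, between 1.35 and 4.54, *Ifitm5* falls left of it with the highest floor, and *Phex* runs from 0.72 to 7.70, the latter with no floor and set by a round signal that is not above it.

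Transcription factors that drive osteoblast genes differed between the zones in both directions. Of 12 compared, 3 had at least 2-fold more signal in the CH zone (5 after lowess centring) and 1 in the round zone. *Sp7* (Osterix), required for osteoblast formation and also present in hypertrophic chondrocytes, was at 141 (round) and 1342 (CH). *Dlx5*, a homeodomain factor of bone and cartilage, had 224 and 2019. *Mef2c*, which acts in chondrocyte hypertrophy and on the *Sost* enhancer, had 1099 and 4732, with log2 differences from 1.98 to 2.54 over its 5 probe sets. *Twist1*, an inhibitor of osteoblast differentiation, was lower there at 460 and 199. *Dlx3*, *Dlx6* and *Msx2* were under the floor in the round zone and above it in the CH zone, the same pattern as *Ibsp*, *Dmp1* and *Phex*, with log2 bounds from 0.47 to 0.88. A second *Dlx3* probe set gave a bound of 0.08. *Runx2* had no probe set annotated to it alone. The median of the list was 0.44, and -0.10 with the floor at 207.

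Genes that set local phosphate and pyrophosphate or act on the phosphate hormone axis were led by 2 large differences. *Smpd3*, a sphingomyelinase gene needed for mineralization, was at 318 and 11599, the log2 difference running from 5.19 to 5.63 over its 3 probe sets. *Alpl*, encoding the alkaline phosphatase that hydrolyses pyrophosphate, had signals of 33.6 and 1859, a difference of at least 28.2-fold. *Fgfr1*, a receptor for FGF23, was lower in the CH zone at 3845 and 670 (log2 -2.52). It was at -1.58 on its specific probe set and at -2.13 as the mean over probe sets. The hormone gene *Fgf23* itself, whose production by osteocytes is raised when *Phex* or *Dmp1* is lost, was under the floor in both arrays at 38.0 and 51.1. *Galnt3*, whose product protects FGF23 from cleavage, had signals of 172 and 341 (log2 0.99). Another of its probe sets, under the floor in the round zone, gave a bound of 0.10. The phosphate transporter gene *Slc20a1* had 1206 and 1192, although its probe sets ran down to a log2 difference of -1.22. *Mgp*, encoding the calcification inhibitor matrix Gla protein, had 23790 and 22851. Of 9 compared, 2 passed 2-fold toward the CH zone and 1 toward the round zone, with a median of -0.02. Under the other scalings 3 passed toward the CH zone and the median lay slightly above 0, at up to 0.07.

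Enzymes and receptors of SIBLING proteins included no gene with 2-fold more signal in the CH zone under any of the scalings. *Fam20c*, the Golgi kinase that phosphorylates SIBLING proteins, had signals of 732 and 1245, with log2 differences of 0.77 and 0.78 on its 2 compared probe sets. *Bmp1*, whose protease cleaves DMP1, had 605 and 400 (log2 -0.60). Of 9 such kinases and proteases, 5 were compared and 0 reached 2-fold in either direction. Of the 5, 2 were higher in the CH zone and 3 lower. *Mmp7*, at 16.5 and 91.9, had a log2 bound of 0.48, which depends on the floor. *Mmp9* and *Mmp13* were under the floor in both arrays, *Mmp13* at 13.3 and 63.4. Of 10 receptor genes, 9 were compared and 0 were at least 2-fold higher in the CH zone. *Itga8* had signals of 2414 and 160 (log2 -3.91), *Itga9* had 299 and 121 (-1.31, and as little as -0.49 on another probe set), and the main osteopontin and bone sialoprotein receptor chains *Itgav* and *Itgb3* had 3319 and 2379, and 137 and 109. *Cd44* had 172 and 228. Among M13 endopeptidases related to *Phex*, 0 of 5 compared genes reached 2-fold, or 1, *Mme* (neprilysin, at 188 and 331), with quantiles equalized or lowess centring.

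**Figure D3:**
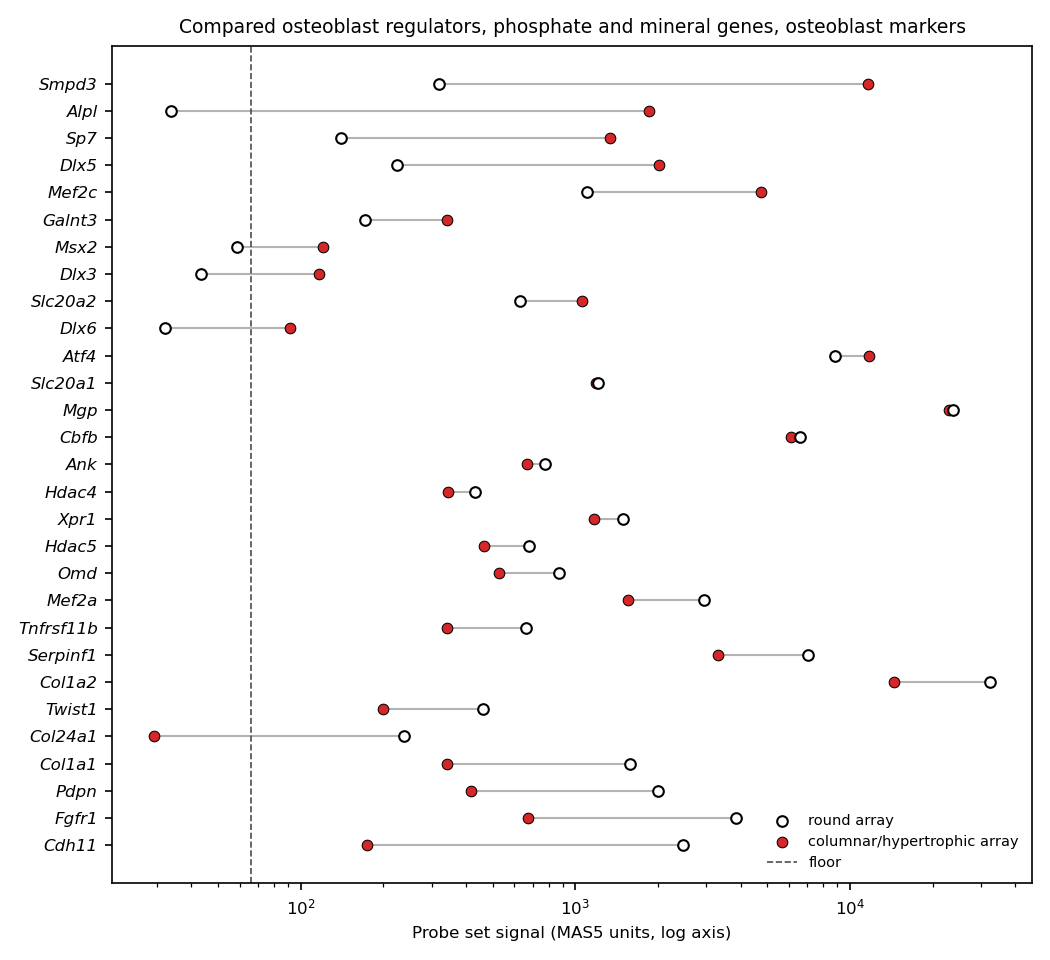
Signals (log axis) of all compared genes among osteoblast transcription factors, phosphate and mineral genes, and other osteoblast markers in the round zone (open circles) and the columnar and hypertrophic, CH, zone (filled circles), 1 array per zone, ordered by their log2 difference. *Smpd3*, *Alpl*, *Sp7* and *Dlx5* lie at the top with the filled circle on the right, and *Cdh11*, *Fgfr1*, *Pdpn* and *Col1a1* at the bottom with the open circle on the right.

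Other osteoblast markers lay on the opposite side from *Ibsp* and *Ifitm5*. Of 10 compared, 6 were at least 2-fold higher in the round zone and 2, *Sp7* and *Alpl*, in the CH zone, with a median of -1.13. *Col1a1*, encoding a chain of the main bone collagen, had signals of 1583 and 342 (log2 -2.21), and -2.14 on its second probe set. *Col1a2* had 32412 and 14443 (-1.17), and -1.70 and -2.26 on its other probe sets. *Cdh11*, encoding the osteoblast cadherin, had 2462 and 174 (-3.82). Its other probe set, under the floor in the CH zone, gave a bound of -1.46. *Pdpn*, an early osteocyte marker also made by other cells, had 2000 and 415 (-2.27), and *Serpinf1* had 7047 and 3298 (-1.10). *Bglap* and *Bglap2*, the osteocalcin genes, had no probe set annotated to them alone. Several of these genes are also made by perichondrium and fibroblasts, whose own markers were higher in the round zone, 6 of 10 compared by at least 2-fold and 0 the other way, with *Postn* at 1977 and 186. The summed signal of that marker list was 86523 in the round and 34400 in the CH zone. Their part in the osteoblast values was not tested.

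Markers of cells that lie beside calcifying cartilage were set next to the bone matrix genes. In the prehypertrophic and hypertrophic list, from which *Ibsp* and *Spp1* were left out, 5 of 6 compared genes reached 2-fold on the CH side. *Alpl* was among them, and of the members *Ibsp* and *Ifitm5* passed 2-fold on that side. *Vegfa* was lower there at 3095 and 1877. The summed signal of the list was 5393 in the round and 65215 in the CH zone, although its member *Mmp13* was under the floor at 13.3 and 63.4. The part of hypertrophic cells in the members' values was not tested. Of 11 osteoclast markers measured, 5 were above the floor in each array, the summed signal was 2977 and 2871, and *Acp5*, *Calcr*, *Mmp9*, *Ocstamp*, *Dcstamp* and *Atp6v0d2* were under the floor in both. Those above it were *Ctsk* (cathepsin K) at 1231 and 1385, *Nfatc1* at 1210 and 969, *Oscar*, *Itgb3* and *Tnfrsf11a*. The part of osteoclasts in the members' values was not tested. Erythroid markers had 2 of 7 above the floor in the round and 1 in the CH zone, and a summed signal of 239 and 241, with *Hba-a1* at the floor in both. Myeloid markers had 3 of 10 above the floor in each array and a summed signal of 430 and 607, with *Ptprc* at the floor in both. Of these, *Csf1r* was at 91.0 and 161, with log2 differences from 0.78 to 0.86 (the latter a bound) over its 3 probe sets. *Lyz2* was at 100.3 and 139, and both genes went in the direction of *Ibsp*. *Cd68* was at 102 and 63.4, the other way, with a log2 bound of -0.62. Of 4 myeloid markers compared, 3 were higher in the CH zone and 1 lower. Endothelial markers had 7 and 5 of 10 above the floor and a summed signal of 1059 and 621, with *Tek* and *Tie1* at the floor in both. Skeletal muscle markers had 3 and 5 of 10 above it and a summed signal of 486 and 1120, with *Myog* at the floor in both. *Tnnt3*, a fast troponin gene, was at 26.3 and 409, at least 6.20-fold, and *Acta1* at 112 and 291, both in the direction of *Ibsp*. *Des* was at 139 and 28.1, the other way, a log2 bound of -1.08, although its second probe set gave a bound of 0.57. The part of myeloid cells and muscle in the members' values was not tested.

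**Figure D4:**
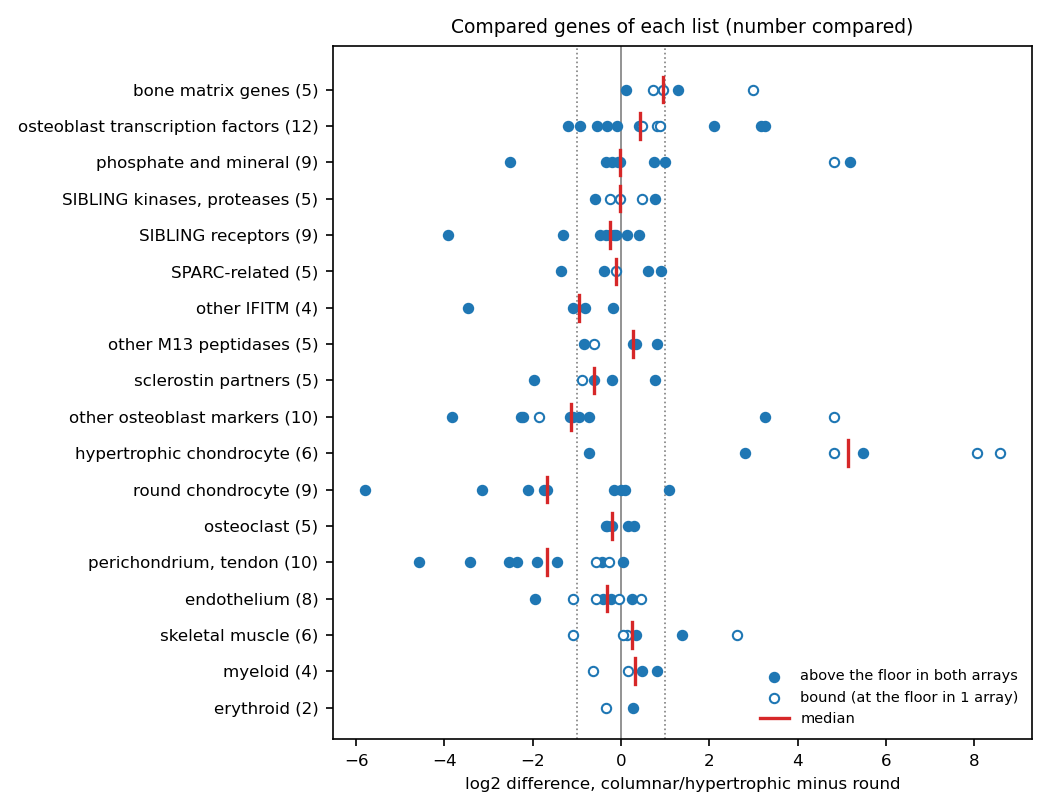
log2 difference (CH minus round) of every compared gene of each list, with filled circles for genes above the floor in both arrays, open circles for bounds and a red bar for the median of lists with at least 3 compared genes. Dotted lines mark 2-fold; the bone matrix genes all lie right of 0, as *Sparc* does not after lowess centring, with a median of 0.95, while other osteoblast markers have a median of -1.13 and osteoclast markers one of -0.21, or 0.05 after lowess centring.

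On the level of probe sets, 9 of the 14 were compared and 3 were at least 2-fold higher in the CH zone, namely both of *Ibsp* and that of *Ifitm5*, where 3.58% of 29258 compared probe sets were. In the round zone 0 were. The 5 probe sets under the floor in both arrays were those of *Mepe* and *Sost* and 1 each of *Dmp1* and *Phex*.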

How the data were processed

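The authors hybridized the RNA to Affymetrix mouse genome arrays and deposited linear probe set intensity values. MAS5 is the tool named by the submitters' processing notes, its version being not given in the sources used here. Robust multiarray analysis, which the study's methods give for heatmaps, yields log values and was not used here. Those methods describe the round specimen only. Groups came from the sample labels, with 1 array each. Mean signals after trimming 2% at each end were 497 and 496, and no further scaling was applied. Detection calls were not used here.

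Of 45037 probe sets, 34945 were annotated to 1 symbol, 932 to several (given no name) and 9160 were unnamed here. Symbols were checked by Entrez identifier against a RefSeq gene table, and 0 changed. Signals under the floor, the 40th percentile of both arrays together, were raised to it before log2. Each gene was represented by its brightest probe set, by mean log2 signal after the floor. A size rule of 2-fold stood in for a test. Promoter windows came from RefSeq. No protein sequences were used here.

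The members, gene lists and size rule were chosen with earlier results of these data known. Besides the members, up to 3 genes per list were named, those with the largest difference of at least 2-fold above the floor in both arrays. Also named were the 3 genes closest in log2 difference to *Ifitm5* and to *Sparc*, and up to 5 genes on either side of the SIBLING cluster. Not all of these are given, and further list genes are examples chosen after their values were seen. The difference step was tested on simulated data, with changes placed only in probe sets brighter than those of *Ibsp*, *Dmp1*, *Phex* and *Ifitm5*. Recovery of changes near the floor was not tested. Alternatives were 3 scalings, a floor at the 20th or 60th percentile or none, averaging of probe sets, only specific probe sets, a 3-fold rule and, chosen after seeing the data, the probe set with the highest signal without the floor. Calculations ran in Python 3.11.15 with pandas 2.3.3 and numpy 2.4.6, lowess came from statsmodels 0.14.6, and plots from matplotlib 3.10.9.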

Additional observations from a re-analysis of the deposited data

How the results depend on the processing

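No paired analysis was possible because the 2 arrays carry no shared replicates, 1 standing for each zone. The number of arrays limits the precision, as does the nearness of most members to the floor. A log2 difference was taken as moved when it changed by more than the pooled SD of 0.34, and a count when it changed by more than 1.5 times. Of 100 comparisons with another setting, 75 were unchanged by these rules and 25 moved, and no called difference turned its sign. The count rule passes a change from 2 to 3 members past 2-fold as unchanged, and a count that stayed at 0. A change of floor alone cannot turn the sign of a probe set. The tally is therefore no measure of how firm the member results are. *Sparc* did not move under any other setting. Among the context genes and list medians, 27 values moved and 314 did not.

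With the floor at the 20th percentile (a signal of 22.7), the log2 difference was 4.54 for *Ibsp*, 0.59 for *Dmp1* and 2.26 for *Phex*. With no floor they were 2.08, 0.59 and 7.70, the last being the bare ratio of the deposited signals. In both cases 7 members were compared, *Mepe* and *Sost* included, 3 reached 2-fold on the CH side and the median was 0.59. Raising the floor to the 60th percentile (207), they were 1.35 for *Ibsp* and 0.49 for *Ifitm5*, 3 members were compared, 1 reached 2-fold on the CH side, and the median was 0.49. *Ibsp* was at 2.36 as the mean over probe sets. With the probe set chosen without the floor, *Ibsp* was at 1.72 and *Dmp1* at 0.42. This choice was added after seeing the data. *Dmp1* could not be compared on specific probe sets alone, nor *Dmp1* and *Phex* with the floor at 207. A 3-fold rule left 1 member higher in the CH zone. For *Ibsp* and *Phex* at the 20th percentile, and for *Ibsp* and *Ifitm5* at the 60th, the probe set was unchanged and the floor stood in for the round signal. *Dmp1* with a lower or no floor, and *Ibsp* with none, took another probe set.

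Over all genes, 546 passed 2-fold toward the CH zone and 798 toward the round zone. These counts were 1053 and 1519 with the 20th percentile floor, 347 and 407 with the 60th, 1940 and 2524 with none, and 214 and 271 at 3-fold. After lowess centring they were 674 and 602, a CH share of 52.8% against 40.6% as reported. With centring on the median the counts were 653 and 668, a share of 49.4%. With quantiles equalized they were 645 and 638, a share of 50.3%. The scalings shifted the median of all genes by at most 0.09.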
